A study of Mus musculus with 12 samples.

Results

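The 10 genes described here, Vwf, Selp, Thbs1, Pf4, Ppbp, Gp5, Gp9, Treml1, Rab27b and Fli1, are genes of megakaryocytes and platelets whose transcripts were measured in mouse haematopoietic stem cells (HSCs). They were taken by name from 18193 genes that had a probe set of their own on the array, and hold 17 of 45101 probe sets. For each gene the probe set with the highest log2 signal, averaged over all 12 arrays, is given first and the others beside it. The 12 arrays fall into 4 groups of 3 biological replicates of sorted bone marrow HSCs, GFP- and GFPhigh cells of wild-type mice (wild-type GFP- and wild-type GFPhigh) and of Nras mice (Nras GFP- and Nras GFPhigh). The Nras mice had the genotype NrasG12D/+, an activating mutation in 1 copy of a gene for a small GTPase. All mice, wild-type included, drank doxycycline for 6 weeks and were followed for 12 weeks after it was withdrawn. GFP- cells are called cycling in the labels and GFPhigh cells quiescent. The labels used here do not give the promoter behind the GFP label, how the Nras allele was switched on, the sort markers, the age of the mice or whether marrows were pooled.

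Megakaryocytes are the marrow cells that shed platelets. Some HSCs carry transcripts of this lineage, and expression of Vwf is known to mark mouse HSCs that are primed for platelet output. At a wound, von Willebrand factor tethers platelets through the glycoprotein Ib-IX-V complex, and alpha granules then release adhesive proteins and chemokines. P-selectin moves from the granule membrane to the cell surface in the same step.

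Promoters are shown for 3 members. Pf4 and Gp5 were the pair of members whose signals were most alike across the arrays, and Ppbp lies next to its chemokine relative Pf4 in the genome but read below the array median on 11 of 12 arrays. RefSeq's promoter table for GRCm38.p6 had entries for 6 of the 10 members, without Vwf, Thbs1, Rab27b and Fli1. The 250 bases before each annotated start are printed 5′ to 3′ on the strand of the gene. They lie at chr5:90772185-90772434 (plus strand) for Pf4, chr5:90768268-90768517 (plus strand) for Ppbp and chr16:30310782-30311031 (minus strand) for Gp5. Capitals mark AGATAA or its reverse complement TTATCT, a form of the motif of GATA factors, and AGGAAG or its reverse complement CTTCCT, a form of the motif of the ETS family, to which Fli1 belongs. Both strands were searched.
Pf4: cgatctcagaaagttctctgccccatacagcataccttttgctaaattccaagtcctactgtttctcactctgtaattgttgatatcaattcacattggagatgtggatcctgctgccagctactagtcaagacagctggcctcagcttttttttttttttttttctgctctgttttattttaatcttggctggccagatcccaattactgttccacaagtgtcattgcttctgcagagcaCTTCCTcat
Ppbp: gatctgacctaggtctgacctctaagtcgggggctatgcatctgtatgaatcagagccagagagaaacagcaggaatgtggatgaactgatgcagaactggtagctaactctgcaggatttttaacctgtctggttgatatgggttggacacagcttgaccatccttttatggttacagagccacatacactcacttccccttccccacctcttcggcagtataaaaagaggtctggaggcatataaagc
Gp5: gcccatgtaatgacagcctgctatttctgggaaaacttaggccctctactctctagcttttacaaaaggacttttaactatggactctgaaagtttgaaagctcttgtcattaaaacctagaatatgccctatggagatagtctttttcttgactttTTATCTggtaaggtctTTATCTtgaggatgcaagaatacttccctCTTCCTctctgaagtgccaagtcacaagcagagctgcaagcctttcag
Gp5 held 2 matches to the GATA form, beginning 93 and 77 bases before the start, and 1 match to the ETS form at 48 bases. Pf4 held 1 ETS match at 9 bases, and Ppbp held no match to either. Of the promoters not printed, Gp9 and Selp held 1 ETS match each, at 16 and 64 bases, and Treml1 held none. No matches overlapped each other. Of 27025 promoters of this length, 10.3% held the GATA form, 29.2% the ETS form and 2.96% both. These matches describe the letters in the window only.

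The arrays carried HSC transcripts. Of 10 HSC markers 8 had a probe set, and all 8, Procr, Kit, Hlf and Mecom among them, were above the array median on 12 of 12 arrays. Of 3 further markers, listed as low in long-term HSCs, Cd34 was above it on 12 arrays, Flt3 on 9 and Cd48 on 3. Over both genotypes 3 of 3 were lower in GFPhigh than in GFP- cells, with a median log2 fold change of -2.13, against 0.018 over all genes. In Nras cells 1 of the 3 was higher. The part of this difference in the values below was not tested. Signals are intensities in MAS5 units on a linear scale, and the array medians ranged from 44 to 129.6. Array weights in limma were 0.308 to 0.522 on wild-type GFPhigh replicate 2, Nras GFP- replicate 1 and Nras GFPhigh replicates 1 and 2, here called the low-weight arrays, and 0.903 to 2.46 on the other 8. Without the low-weight arrays, replicate 3 is the only Nras GFPhigh array, so values without them rest on that array for this group. Xist, the long RNA behind X inactivation in females, read 91.8 to 205.1 on the replicate 3 arrays and 5773.4 to 11480.7 in replicates 1 and 2. In bulk samples of sorted cells, fewer cells with a transcript cannot be told apart from less of it per cell.

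No member passed the test in any of 7 comparisons, by limma at a Benjamini-Hochberg adjusted p under 0.05 over 12083 genes. For GFPhigh against GFP- over both genotypes the members' SEs had a median of 0.82 on the log2 scale, against 0.62 over all genes, so the values that follow describe levels and their spread. The test covered 9 members, because Ppbp was not above the array median on at least 3 arrays. Between GFPhigh and GFP- cells over both genotypes, 0% of all genes and 0 of 9 members were called, and 0 of 9 had an unadjusted p under 0.05, against 4.36% of all genes higher and 4.51% lower at that p. Between Nras and wild-type cells over both populations, 0.00828% of all genes were called, which is the single gene Gem. There 1 of 9 members, Fli1, was lower at an unadjusted p under 0.05, against 5.12% of all genes, and 0 were higher, against 2.66%. In the interaction, the difference of the GFPhigh over GFP- effect between Nras and wild-type cells, 0% of all genes were called. There 1 of 9 members, Selp, was negative at an unadjusted p under 0.05, against 2.25% of all genes, and 0 were positive, against 2.43%.

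Within the separate genotypes and populations 0% of genes and 0 of 9 members were called. At an unadjusted p under 0.05, Selp was lower in GFPhigh than in GFP- Nras cells, 1 of 9 members against 5.97% of all genes, and 0 were higher, against 6.2%. In wild-type cells 0 of 9 differed between the populations at that p, against 1.05% of genes higher and 1.15% lower. Between Nras and wild-type, 0 of 9 differed in GFP- cells, against 0.968% higher and 3.42% lower, and 0 of 9 in GFPhigh cells, against 3.17% higher and 5.12% lower.

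Most members had a lower mean signal in GFPhigh than in GFP- cells of Nras mice, although none passed the test. The log2 fold change of GFPhigh over GFP- cells had a median of -0.90 over the 9 members in Nras cells, with 2 positive and 7 negative, against 0.082 over all genes tested. In wild-type cells the members' median was -0.10, with 4 positive and 5 negative, against -0.031. For Nras over wild-type it was 0.95 in GFP- cells, with 7 positive and 2 negative, against -0.17 over all genes, and -0.54 in GFPhigh cells, with 4 positive and 5 negative, against -0.090. Of all genes, 53.2% were positive for GFPhigh over GFP- in Nras cells and 47.8% in wild-type cells. For Nras over wild-type, 40.6% were positive in GFP- cells and 46.1% in GFPhigh cells. The comparisons share groups and are not independent of each other. The median of all genes moved with scaling, to -0.41 in the Nras population comparison and to 0.43 for Nras over wild-type GFP- cells when arrays were centred on their medians. The members' medians under that scaling are not given here, so the contrast with all genes holds for the main scaling only.

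**Figure D1:**
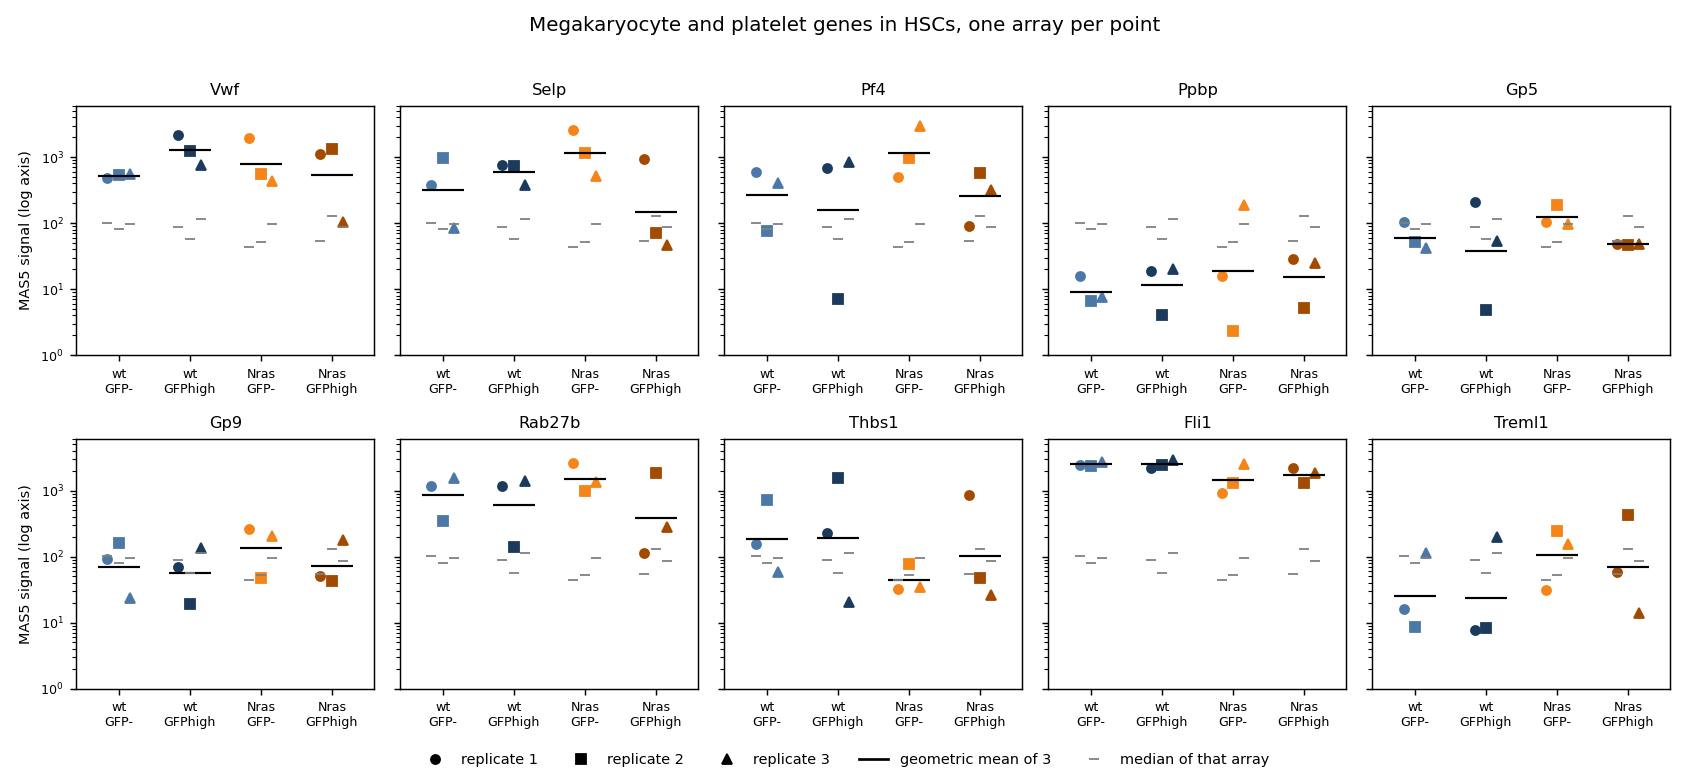
MAS5 signal on a log axis for the 10 genes in 4 groups, with 1 point per array, the point shape giving the replicate, a black line at the geometric mean of 3 arrays and a grey dash at the median of that array. Vwf read 769.4 to 2180.4 in wild-type GFPhigh cells and 490.6 to 550.6 in wild-type GFP- cells, whereas the points of most other genes spread widely within a group and Ppbp lies above the grey dash on 1 array.

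Of the adhesive proteins, Vwf was higher in every wild-type GFPhigh array than in every wild-type GFP- array. Vwf (probe set 1435386_at) encodes von Willebrand factor, which binds collagen and platelets. In the order of replicates 1 to 3, used in all lists that follow, it read 490.6, 534.7 and 550.6 in wild-type GFP- cells and 2180.4, 1243.3 and 769.4 in wild-type GFPhigh cells. In Nras cells it read 1956.3, 548.2 and 438.8 in the GFP- and 1123.9, 1340.1 and 104.2 in the GFPhigh population. The wild-type populations did not overlap, and the Nras populations did. Vwf was 1 of 9 members higher without overlap in wild-type GFPhigh cells, against 5.3% of all genes, and 0 of 9 were lower without overlap, against 5.81%. The mean log2 signal was 10.32 ± 0.75 in wild-type GFPhigh, 9.60 ± 1.16 in Nras GFP-, 9.08 ± 2.06 in Nras GFPhigh and 9.04 ± 0.087 in wild-type GFP- cells (SD, n = 3). Neighbours in that order overlapped.

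The tests of Vwf did not pass. In wild-type cells the log2 fold change of GFPhigh over GFP- was 1.28 ± 0.94 (SE), with a 95% interval from -0.74 to 3.31 and a limma adjusted p of 0.9997. It was 0.90 to 1.65 when each array was left out in turn. Over both genotypes the log2 fold change was 0.38 ± 0.66 (limma adjusted p = 0.898), and it was -0.47 without the low-weight arrays. Nras over wild-type was -0.34 ± 0.66, which became 0.25 without Nras GFPhigh replicate 3. The interaction was -1.81 ± 1.33 (95% interval -4.68 to 1.06) and became -0.63 without that same array and -3.54 without the low-weight arrays. With the low-weight arrays left out, Nras GFPhigh replicate 3, where Vwf read 104.2, is the only array of its group.

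Selp had the smallest adjusted p of any member. It encodes P-selectin, the granule membrane protein by which activated platelets and endothelium hold white blood cells. Its probe set 1449906_at read 384.2, 972.3 and 85.6 in GFP- and 771, 726.5 and 372.3 in GFPhigh wild-type cells, and 2561.2, 1137.2 and 514.7 in GFP- and 930, 70.4 and 46.5 in GFPhigh Nras cells. Nras GFP- cells had the highest mean and Nras GFPhigh cells the lowest, with 1 of 3 Nras GFPhigh arrays inside the range of the Nras GFP- arrays. GFPhigh over GFP- in Nras cells was -2.98 ± 1.17 (SE; 95% interval -5.51 to -0.45; limma adjusted p = 0.355), and the adjusted p ran from 0.245 to 0.729 over the alternatives. In wild-type cells it was 0.90 ± 1.17, which became -0.044 without wild-type GFP- replicate 3. The interaction was -3.88 ± 1.66 (95% interval -7.46 to -0.30; limma adjusted p = 0.956).

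Nras over wild-type for Selp was 1.85 ± 1.17 in GFP- cells and -2.03 ± 1.17 in GFPhigh cells (limma adjusted p = 0.983 and 0.694). The first became 0.91 without wild-type GFP- replicate 3, and the second -1.21 without Nras GFPhigh replicate 3 and -3.37 without Nras GFPhigh replicate 1. Over both populations it was -0.091 ± 0.83, and GFPhigh over GFP- over both genotypes was -1.04 ± 0.83. The other probe sets of Selp spread less between groups. Probe set 1420558_at read 161.5, 371.3 and 346.8 in GFP- and 172.4, 275.6 and 771 in GFPhigh wild-type cells, and 240, 386.3 and 356.9 in GFP- and 70.7, 409.9 and 97.2 in GFPhigh Nras cells. Its fold change of GFPhigh over GFP- in Nras cells was -1.18 ± 0.87 on the log2 scale, and that of 1440173_x_at was -1.50 ± 1.42. Probe set 1440173_x_at read 818.6, 374.6 and 35 in GFP- and 714.5, 25.7 and 616.1 in GFPhigh wild-type cells, and 2679.1, 338.1 and 375.8 in GFP- and 393.6, 178.7 and 212.4 in GFPhigh Nras cells. The 3 probe sets shared the direction of this effect and differed in its size.

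Thbs1, for thrombospondin-1, an adhesive protein of the alpha granule, spread widely within the groups. Probe set 1450377_at read 152.7, 709.8 and 58 in GFP- and 227.9, 1546.2 and 20.8 in GFPhigh wild-type cells, and 31.9, 77.8 and 34.6 in GFP- and 844.3, 48 and 26 in GFPhigh Nras cells. Every group overlapped every other. Probe set 1460302_at read 152.1, 395.4 and 34.8 in GFP- and 793.2, 458.6 and 3.9 in GFPhigh wild-type cells, and 64.4, 58.2 and 13.2 in GFP- and 292.8, 667.6 and 6.7 in GFPhigh Nras cells. Nras over wild-type was -1.50 ± 1.13 and GFPhigh over GFP- was 0.64 ± 1.13, with an interaction of 1.13 ± 2.26 (limma adjusted p = 0.760, 0.898 and 0.966). GFPhigh over GFP- was -1.21 without the low-weight arrays.

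In these 3 genes replicate 3 tended to be the lowest array of its group, a pattern noticed after the values were seen. Replicate 3 was lowest in 4 of 4 groups for Selp 1449906_at and Thbs1 1460302_at, against 1.11% of 23128 probe sets. It was lowest in 3 of 4 groups for Vwf and Thbs1 1450377_at, against 8.09% of probe sets with 3 or more such groups. For the chosen probe sets of Rab27b, Pf4 and Fli1 it was lowest in 0 of 4 groups, and so it was for Selp 1420558_at, with 1 of 4 for Selp 1440173_x_at. Replicate 3 also stood apart in Xist, and the part of that difference in these results was not tested.

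Endothelium also expresses Vwf, Selp and Thbs1, and its defining markers were mostly dim. Of the 4, Plvap was above the array median on 0 of 12 arrays (2.1 to 10.2), Cdh5 on 1, Cldn5 on 2 and Kdr on 8, with none listed at 0. All 12 markers of the list had a probe set, and 9 passed the filter. Their summed signal was 4326.7 to 6328.8 in wild-type GFP-, 4547.6 to 8881.4 in wild-type GFPhigh, 3089.3 to 6436 in Nras GFP- and 7174.6 to 8031.1 in Nras GFPhigh cells. The sums of the Nras populations did not overlap, with GFPhigh the higher, and those of the wild-type populations did. In Nras cells 8 of the 9 tested markers were higher in GFPhigh than in GFP- cells, with 0 called. Their median log2 fold change was 1.52, against 0.082 over all genes. In wild-type cells 3 were higher and 6 lower, with a median of -0.20, against -0.031. HSCs themselves express some genes of this list, such as Tek. The part of these markers in the values of Vwf, Selp and Thbs1 was not tested.

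The chemokines differed from each other in detection. Pf4, platelet factor 4, is a chemokine of the alpha granule that binds heparin and is known to restrain HSC cycling when released by megakaryocytes. Its probe set 1448995_at read 602.5, 75.7 and 403.4 in GFP- and 684.9, 7 and 831.1 in GFPhigh wild-type cells, and 507.3, 984.1 and 3003.8 in GFP- and 91.8, 580.2 and 313.3 in GFPhigh Nras cells. Nras GFP- cells had the highest geometric mean, 1145, against 264 in wild-type GFP-, 256 in Nras GFPhigh and 159 in wild-type GFPhigh cells. The log2 SDs were 1.30, 1.59, 1.35 and 3.90 in that order (n = 3), and every group overlapped every other. Nras over wild-type was 1.40 ± 1.12 and GFPhigh over GFP- was -1.45 ± 1.12 (limma adjusted p = 0.772 and 0.728). Without wild-type GFPhigh replicate 2, the array at 7, these became 0.28 and -0.32. The interaction was -1.43 ± 2.25, which became -3.68 without that array and -0.23 without wild-type GFPhigh replicate 3.

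Ppbp, the precursor of the neutrophil-attracting chemokine of platelets, was dim. Probe set 1418480_at read 15.6, 6.5 and 7.5 in GFP- and 18.6, 4.1 and 19.9 in GFPhigh wild-type cells, and 16, 2.3 and 185.6 in GFP- and 28.8, 5.2 and 24.5 in GFPhigh Nras cells. Nras GFP- replicate 3, where Ppbp read 185.6 and was above the array median, was also the array with the highest Pf4 signal, 3003.8. No test was made for Ppbp.

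The platelet surface receptors Gp5, Gp9 and Treml1 were above the array median on no more than 6 of 12 arrays each. Gp5 and Gp9 encode glycoproteins V and IX, subunits of the receptor for von Willebrand factor. Gp5 (1422817_at) was above the array median on 4 of 12 arrays, and read 103.1, 51.3 and 41.3 in GFP- and 205.7, 4.8 and 53.4 in GFPhigh wild-type cells, and 103.6, 188 and 95.3 in GFP- and 48.5, 47 and 48.1 in GFPhigh Nras cells. All Nras GFPhigh arrays were below all Nras GFP- arrays. Gp5 was 1 of 9 members lower without overlap in that comparison, against 6.21% of all genes, and 0 of 9 were higher without overlap, against 6.7%. The log2 fold change of GFPhigh over GFP- in Nras cells was -1.36 ± 1.16 (SE; 95% interval -3.87 to 1.15; limma adjusted p = 0.665), with an SE that limma takes from all 4 groups and not from the close Nras GFPhigh arrays alone. Over both genotypes it was -1.02 ± 0.82, Nras over wild-type was 0.69 ± 0.82 and the interaction was -0.68 ± 1.64. The wild-type GFPhigh group decided the sign of the interaction, which was -2.16 without its replicate 2 and 0.55 without its replicate 1.

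Gp9 (1419720_at) was above the array median on 5 of 12 arrays, and read 91.5, 160.1 and 23.3 in GFP- and 70.3, 19.3 and 134.1 in GFPhigh wild-type cells, and 259, 47.1 and 202.5 in GFP- and 50.4, 42.5 and 178.8 in GFPhigh Nras cells. Its groups all overlapped. GFPhigh over GFP- was -0.60 ± 0.77, Nras over wild-type was 0.65 ± 0.77 and the interaction was -0.59 ± 1.54 (limma adjusted p = 0.856, 0.851 and 0.973). GFPhigh over GFP- was 0.67 without the low-weight arrays.

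Treml1 encodes TLT-1, a receptor of the alpha granule membrane that reaches the surface on activation. Its probe set 1452630_at was above the array median on 6 of 12 arrays and read 16.3, 8.6 and 112.6 in GFP- and 7.7, 8.3 and 200 in GFPhigh wild-type cells, and 31.2, 243.8 and 155.7 in GFP- and 57.6, 429.7 and 14.2 in GFPhigh Nras cells. The wild-type arrays were low in replicates 1 and 2 and high in replicate 3, and the Nras arrays had no such split. Nras over wild-type was 1.84 ± 1.13 (95% interval -0.60 to 4.27; limma adjusted p = 0.707), and kept this sign under all 23 alternatives, from 0.59 to 3.59. GFPhigh over GFP- was -0.34 ± 1.13 and the interaction -0.48 ± 2.26.

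Rab27b, a small GTPase needed for the release of platelet dense granules, was above the array median on all 12 arrays. Its probe set 1417214_at read 1171.7, 339.9 and 1537.6 in GFP- and 1158.2, 141.2 and 1413.9 in GFPhigh wild-type cells, and 2588.4, 967.7 and 1368.3 in GFP- and 113, 1819.9 and 283.1 in GFPhigh Nras cells. Nras GFPhigh replicate 1 was the lowest of all arrays, while replicate 2 of the same group was exceeded by 1 array only. In wild-type cells replicate 2 was the low array of both populations in this probe set. GFPhigh over GFP- was -1.21 ± 0.78 over both genotypes (95% interval -2.90 to 0.47; limma adjusted p = 0.687), Nras over wild-type was 0.082 ± 0.78 and the interaction was -1.49 ± 1.56. Probe set 1417215_at gave -1.03 ± 0.80 for GFPhigh over GFP- and probe set 1439610_at gave 0.038 ± 1.30. Nras over wild-type was -0.77 ± 0.80 and -0.73 ± 1.30 in these, against 0.082 in the first. Probe set 1417215_at read 748, 186 and 1634.4 in GFP- and 328.9, 1273.9 and 720.9 in GFPhigh wild-type cells. There replicate 2 was the lowest GFP- array and the highest GFPhigh array. A further probe set, 1443764_x_at, missed the filter and read 13 to 57.2 over all arrays.

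Fli1 is an ETS transcription factor that drives megakaryocyte genes and is also active across HSCs. It was above the array median on all 12 arrays with both probe sets, and they gave opposite signs for genotype. Probe set 1433512_at read 2440.8, 2341.6 and 2734.7 in GFP- and 2200.5, 2464.8 and 2891.5 in GFPhigh wild-type cells, and 924, 1298 and 2561 in GFP- and 2174.6, 1293.3 and 1832.2 in GFPhigh Nras cells. All Nras GFPhigh arrays were below all wild-type GFPhigh arrays. It was 1 of 9 members lower without overlap there, against 7.37% of all genes, and 0 of 9 were higher without overlap, against 5.12%. Between Nras and wild-type GFP- cells 0 of 9 members were higher and 0 of 9 lower without overlap, against 4.07% and 6.72%.

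Nras over wild-type for Fli1 was -0.66 ± 0.30 over both populations (SE; 95% interval -1.30 to -0.021; limma adjusted p = 0.633) and -0.54 ± 0.42 in GFPhigh cells (limma adjusted p = 0.776). The non-overlap in GFPhigh cells was lost when arrays were centred on their medians. GFPhigh over GFP- was 0.13 ± 0.30 and the interaction was 0.25 ± 0.59. Probe set 1422024_at read 1183.3, 1246.2 and 1094.5 in GFP- and 1925, 1780.4 and 2150.5 in GFPhigh wild-type cells, and 2029.7, 1284.4 and 1960.2 in GFP- and 2979.6, 804.7 and 2915.1 in GFPhigh Nras cells. In this probe set the wild-type GFP- arrays were low, above Nras GFPhigh replicate 2 alone, and lay below all wild-type GFPhigh arrays, as did 5.1% of 23128 probe sets, and below all Nras GFP- arrays, as did 3.83%. Its Nras over wild-type value was 0.26 ± 0.35 and its value for GFPhigh over GFP- in wild-type cells was 0.73 ± 0.50 (limma adjusted p = 0.885 and 0.9998).

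**Figure D2:**
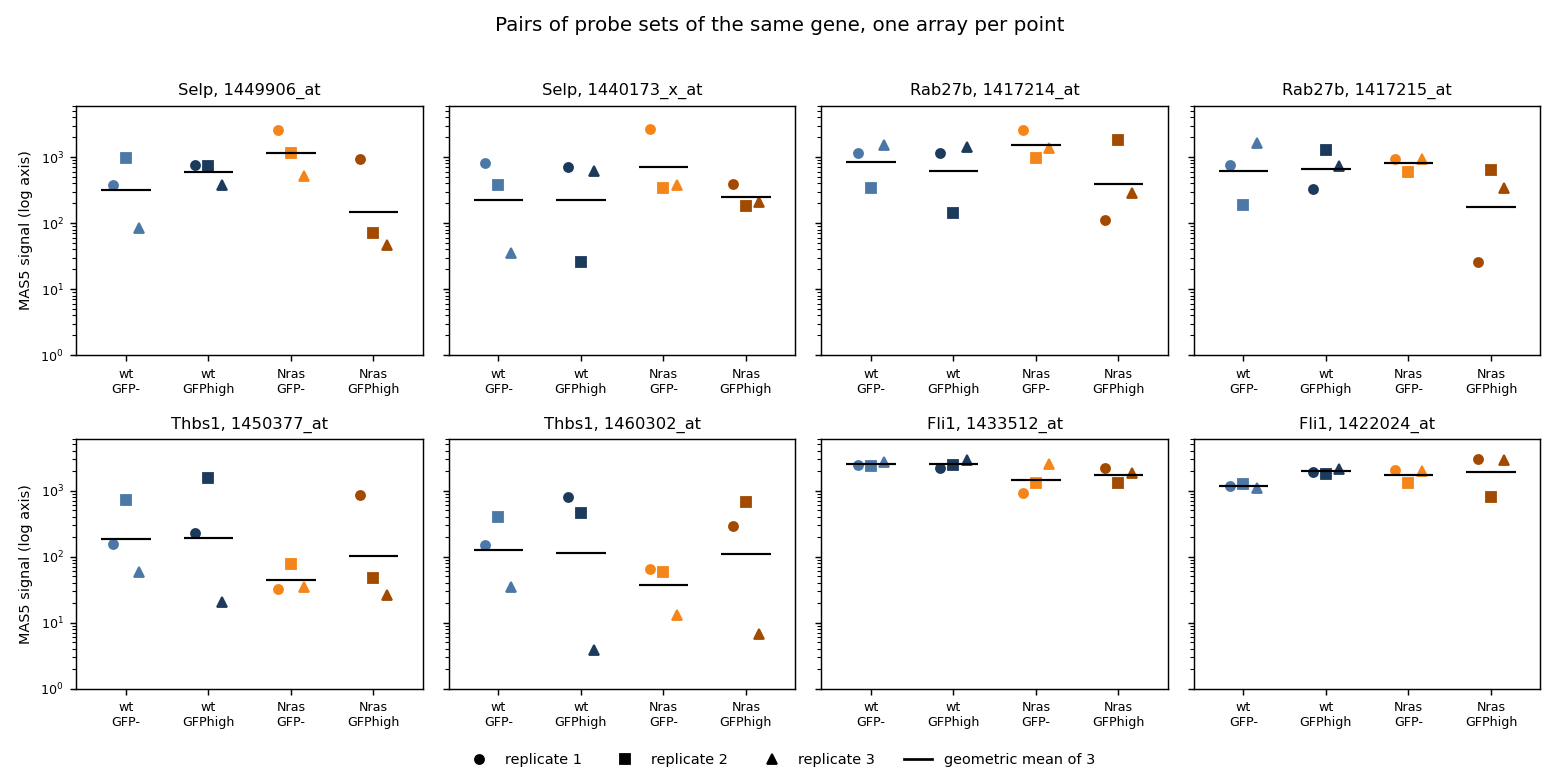
MAS5 signal on a log axis by group for 2 probe sets each, in neighbouring panels, of Selp, Rab27b, Thbs1 and Fli1, with 1 point per array, its shape giving the replicate, and a black line at the geometric mean of 3 arrays. In Fli1 the wild-type GFP- arrays sit at 2341.6 to 2734.7 in 1433512_at, among the high arrays, and at 1094.5 to 1246.2 in 1422024_at, among the low ones.

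**Figure D3:**
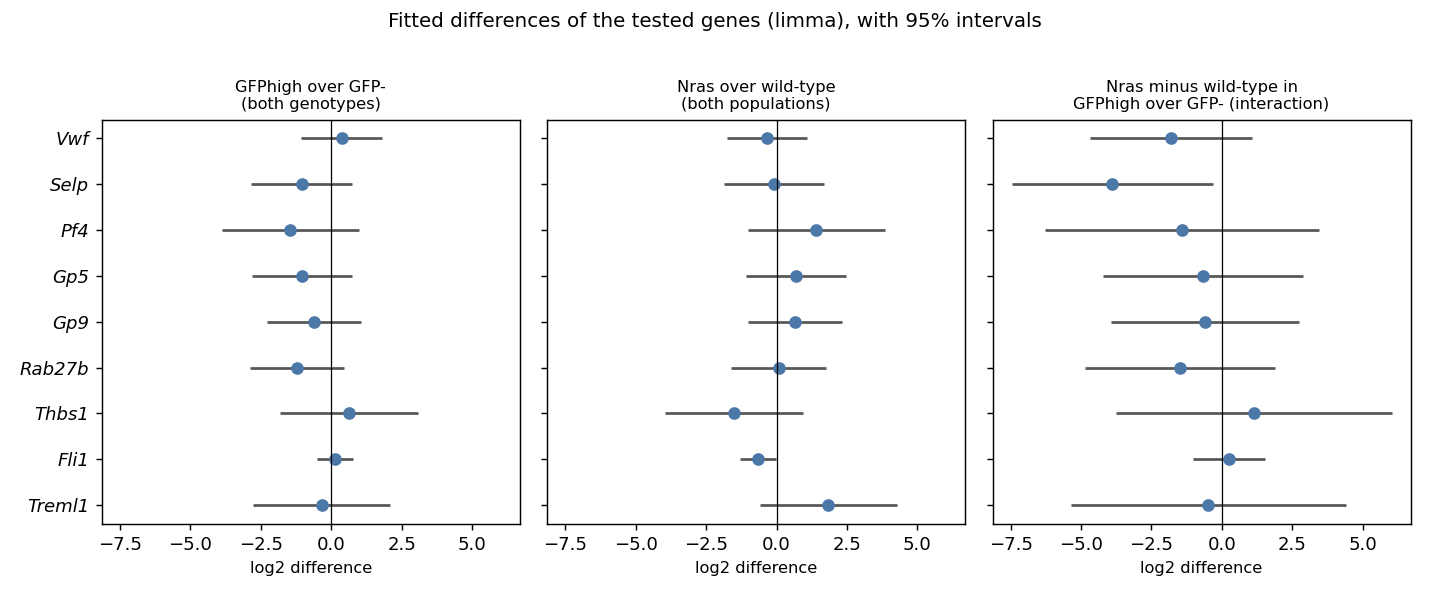
Log2 fold changes with 95% limma intervals, not adjusted for the number of genes, for the 9 tested members in 3 comparisons: GFPhigh over GFP- over both genotypes, Nras over wild-type over both populations, and the interaction. Only the interval of Fli1 for genotype (-1.30 to -0.021) and that of Selp for the interaction (-7.46 to -0.30) leave out 0.

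The members did not vary as 1 block. Of the 36 pairs among the 9 tested members, 18 had a positive Pearson r of log2 signals over the 12 arrays. The arrays share groups and replicates, so these values are given as a description. Pf4 and Gp5 had the highest, r = 0.82 (Spearman rho = 0.66), which was 0.46 without the 2 arrays farthest from the median of Pf4 and 0.50 without wild-type GFPhigh replicate 2, where both genes were lowest. Pf4 and Rab27b had r = 0.78 (rho = 0.48), which was 0.68 and 0.72 without those arrays. Pf4 and Thbs1 ran opposite, r = -0.80 (rho = -0.50), which was -0.56 and -0.69 without them. Vwf and Selp had r = 0.54 (rho = 0.31).

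The genes whose log2 signals followed the members most closely over 12 arrays were found by Pearson r among all genes tested. For Vwf they were Dag1 (r = 0.90), Exoc6b (0.87) and Dnah2 (0.85). For Selp they were Brox (r = 0.95), Gmeb2 (0.91) and Pgd (0.90). For Pf4 they were Myo1c (r = 0.90), Pik3r4 (0.90) and Tmem268 (0.89). These r values are the highest among 12083 genes over 12 arrays that share groups, and are given as a description. Dnah2 and Tmem268 were dim, with group geometric means of 27.2 to 50.0 and 30.3 to 102. None of these 9 genes is on the list of megakaryocyte genes described next. Only 54 genes of that list were tested, so this absence says little.

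A list of 66 further genes of the megakaryocyte programme set the members in context. Of these 59 had a probe set and 54 were tested, and 0 of 54 passed in any of the 7 comparisons. At an unadjusted p under 0.05, 6 were higher and 5 lower in GFPhigh cells over both genotypes, 5 were higher and 3 lower in Nras cells over both populations, and 2 were positive and 2 negative in the interaction. Over all genes the shares at that p were 4.36% higher and 4.51% lower for GFPhigh over GFP-, 2.66% higher and 5.12% lower for Nras over wild-type, and 2.43% positive and 2.25% negative in the interaction. The median log2 fold change was -0.046 for GFPhigh over GFP-, 0.13 for Nras over wild-type and -0.38 for the interaction, against 0.018, -0.15 and 0.11 over all genes. In the interaction 19 of the 54 were positive and 35 negative, while 53.9% of all genes were positive. By role, the median interaction was -0.13 for 9 adhesion and collagen receptors, -0.49 for 12 regulators, 0.23 for 9 granule and secreted proteins, -0.41 for 14 agonist receptors and signalling proteins, and -1.09 for 10 genes of secretion and cytoskeleton, of which 9 were negative. Centring arrays on their medians moved the interaction median of all genes from 0.11 to -0.53 and left 32.4% of them positive. Under that scaling 9 of the 54 were positive and 45 negative, with a median of -1.02, and the secretion and cytoskeleton genes had 10 of 10 negative, with a median of -1.73. The median of the granule and secreted proteins, 0.23, became -0.41. With quantile normalization 15 of the 54 were positive and 39 negative, against 46.7% of all genes positive.

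The genes of smallest p on this list included well-known platelet proteins. For GFPhigh over GFP-, F2r, a thrombin receptor, had a log2 fold change of -1.32 ± 0.38 and Mmrn1, for multimerin of the alpha granule, 0.72 ± 0.23 (SE; limma adjusted p = 0.416 and 0.454). Cd36, a thrombospondin receptor, was above the array median on 3 of 12 arrays (limma adjusted p = 0.454). It read 61.8, 2.4 and 23.4 in GFP- and 99.1, 33.3 and 108.2 in GFPhigh wild-type cells, and 7.2, 3.2 and 52.5 in GFP- and 196.4, 1955.2 and 43.9 in GFPhigh Nras cells, so that 1 array lay far above the rest. Mmrn1 read 2895.1, 2551.5 and 3590.4 in GFP- and 5008.1, 4259.1 and 3414.4 in GFPhigh wild-type cells, and 3738, 1525.3 and 3035 in GFP- and 5880.8, 4736.6 and 4489.6 in GFPhigh Nras cells. The Nras populations of Mmrn1 did not overlap, and the wild-type ones did. Between GFPhigh and GFP- Nras cells, 6.7% of all genes were higher without overlap. Mmrn1 was named for its small p over both genotypes, a choice that favours such separation. For Nras over wild-type, the transcription factor gene Mef2c had 0.60 ± 0.18 and the growth factor gene Tgfb1 1.88 ± 0.66 (limma adjusted p = 0.579 and 0.594). The geometric means of Mef2c were 4202 in GFP- and 4131 in GFPhigh wild-type cells, and 4803 in GFP- and 8346 in GFPhigh Nras cells. In the same order those of Tgfb1 were 417, 268, 2474 and 615. Mef2c thus differed mostly in GFPhigh cells and Tgfb1 more in GFP- cells. F5, coagulation factor V, was above the array median on 4 of 12 arrays (limma adjusted p = 0.579). It read 94.3, 168.7 and 250.4 in GFP- and 241.1, 57.8 and 54.5 in GFPhigh wild-type cells, and 11.9, 11.9 and 47.1 in GFP- and 13.9, 56.5 and 21 in GFPhigh Nras cells. The GFP- groups of F5 did not overlap, and the GFPhigh groups did. In Nras against wild-type GFP- cells, 6.72% of all genes were lower without overlap. The F5 readings in Nras GFP- cells were below their array medians of 44, 51.9 and 95.7. In the interaction, Fermt3, for the integrin activator kindlin-3, had -1.91 ± 0.56, and Sparc, for osteonectin, and Tubb1, for the platelet beta-tubulin, were above the array median on 6 and 3 of 12 arrays (limma adjusted p = 0.956 for each). Tubb1 read 38, 18.3 and 0.6 in GFP- and 235.9, 1697.3 and 37.8 in GFPhigh wild-type cells, and 346.1, 16.2 and 41.5 in GFP- and 36.6, 36.5 and 8.7 in GFPhigh Nras cells. The highest Tubb1 reading was 1 wild-type GFPhigh array. All wild-type GFPhigh arrays lay above all Nras GFPhigh arrays, the nearest at 37.8 and 36.6, and the other pairs of groups overlapped. Of all genes, 7.37% were lower without overlap in Nras than in wild-type GFPhigh cells.

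In Nras GFPhigh cells Fermt3 was low on all arrays and Sparc high on 2 of them. Both genes were named for a small interaction p, a choice that favours such patterns. Of all genes, 6.21% were lower without overlap in Nras GFPhigh than in Nras GFP- cells, and 7.37% than in wild-type GFPhigh cells. The share of genes lower than in all other groups was not computed. Fermt3 read 2260.2, 2658.4 and 1911.3 in GFP- and 3167.8, 4297.7 and 2367.8 in GFPhigh wild-type cells, and 3061.8, 2915.3 and 1850.9 in GFP- and 1332.8, 951 and 693.6 in GFPhigh Nras cells, so all Nras GFPhigh arrays lay below the other 9. Sparc read 256.3, 37.7 and 148.2 in GFP- and 3.6, 12.7 and 9 in GFPhigh wild-type cells, and 71.1, 7.9 and 58.3 in GFP- and 1179.6, 930.7 and 128.1 in GFPhigh Nras cells. The 2 high Sparc arrays, Nras GFPhigh replicates 1 and 2, are low-weight arrays, and replicate 3 lay within the range of wild-type GFP- cells.

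Markers of mature megakaryocytes and of other blood cells were read on the same arrays. Of 10 mature megakaryocyte and platelet markers 9 had a probe set and 8 passed the filter. Of the defining ones, Gp6 was above the array median on 0 of 12 arrays, Tubb1 on 3 and Itgb3, which HSCs also express, on 12, with none at 0. The summed signal of this list was 4148.9 to 8871.9 in wild-type GFP-, 7465.5 to 7996.8 in wild-type GFPhigh, 4036.8 to 6623.8 in Nras GFP- and 7628.5 to 8499.4 in Nras GFPhigh cells, where the Nras populations did not overlap. Mmrn1, described above, is on this list and separated them by itself. Without it, left out after its values were seen, the sum of the other 8 was 1737.1, 2511.5 and 3588.8 in Nras GFP- and 2618.6, 2891.9 and 3239 in Nras GFPhigh cells, which overlapped. Of the 8 tested genes of the list 5 were higher and 3 lower in GFPhigh than in GFP- Nras cells, with 0 of 8 called and a median log2 fold change of 0.22, against 0.082 over all genes. Of the 10 granulocyte markers 9 had a probe set, and their sum was 42847.4, 57194.6 and 5728.3 in Nras GFPhigh cells against 467.1 to 12798.8 over the other 9 arrays. Of the defining ones Ltf was above the array median on 6 of 12 arrays, Camp on 8, Ngp on 9 and S100a8 on 12. Of the 9 monocyte and macrophage markers 8 had a probe set, and their sum was 1471.6 to 2150.5 in Nras GFPhigh cells against 170.8 to 791.7 over the others. Cd68 was above the array median on 9 of 12 arrays, and Csf1r and Adgre1 on 1 each. Of the 10 erythroid markers 7 had a probe set, and their sum was 11902.8, 8933.7 and 181.1 in Nras GFPhigh cells against 143.7 to 5132.1 over the others. Of the defining erythroid genes, Klf1 was above the array median on 5 of 12 arrays and Epor on 4. Of the 5 erythroid genes tested 5 had a positive interaction and 0 were called, with a median of 2.77, against 0.11 over all genes. Of the 6 B cell markers 5 had a probe set, and their sum was 985.5, 3387.1 and 1108.1 in Nras GFPhigh cells against 205.3 to 1061.4 over the others. Among them Cd79b was above the array median on 12 of 12 arrays, and Cd79a and Pax5 on 1 each. Of the 6 T and NK cell markers 4 had a probe set, and their sum was 188.2, 746.7 and 126 in Nras GFPhigh cells against 76.4 to 508 over the others. Of the defining ones Cd3g was above the array median on 0 of 12 arrays, Cd3e on 1 and Nkg7 on 4. The part of all these markers in the Nras GFPhigh values of Selp, Gp5, Fli1, Fermt3 and Sparc was not tested.

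Markers of cell division separated the wild-type populations. The sum of Mki67, Top2a, Cdk1 and Birc5 was 5557.1 to 7862.2 in wild-type GFP- cells and 555.6 to 5093.2 in wild-type GFPhigh cells, and did not overlap. It was 4765.6 to 12498.5 in Nras GFP- and 3121.4 to 11466.7 in Nras GFPhigh cells, which overlapped. Mki67 was the brightest of the 4, with geometric means of 5902 in Nras GFP- and 5111 in Nras GFPhigh cells. In the same order Top2a had 1540 and 577, Cdk1 603 and 238, and Birc5 496 and 241. The log2 fold change of GFPhigh over GFP- was negative for 4 of 4 in Nras and in wild-type cells, with 0 called. Its median was -1.19 in Nras and -2.23 in wild-type cells, against 0.082 and -0.031 over all genes. Vwf was separate in wild-type and overlapping in Nras cells, with GFPhigh the higher in wild-type cells, and its interaction did not pass. A link between Vwf and the division markers was not tested.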

How the data were processed

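Sorted HSC RNA was hybridised to 1 Affymetrix array per sample. The deposited values are intensities, MAS5 signals on a linear scale, per the submitters' processing notes. The release of MAS5 is not given in the sources used here. A 2% trimmed mean was 500 on each array, so the arrays had been scaled to a common mean. Signals were taken to log2 with 3 zeros set to a floor of 0.1. Without 64 controls, 34945 probe sets had 1 gene symbol, 932 several and 9160 none, and the last 2 kinds were not used, among them 1 shared by Thbs1 and another gene.

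One limma model with a mean per group and an intensity trend was fitted over all 12 arrays, for genes whose probe set was above its array median on at least 3 arrays. It gave 7 comparisons: GFPhigh against GFP- and Nras against wild-type, each averaged and within the groups, and the interaction. Tests are two-sided, and p-values were adjusted by Benjamini-Hochberg over all genes tested. The number of arrays limits the precision. The steps were tested on simulated data. Correlations between arrays were 0.659 to 0.893, so none was a copy.

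Members and lists were chosen with earlier results of these data known. The averaged effects and the interaction were reported for each tested member, and an effect within a genotype or population where its groups did not overlap or the interaction had an unadjusted p under 0.05. Other genes named are the 3 of smallest p on the programme list per effect, defining markers of other cell types, and the 3 genes most like Vwf, Selp and Pf4. Alternatives were quantile normalization, median centring, array weights, no filter, pseudocounts of 15.5 (the 25th percentile) and 100, the mean over probe sets, a replicate block, leaving out each array, the low-weight arrays or replicate 3, no intensity trend and, added after seeing the data, each other probe set. The fits used limma 3.58.1 and statmod 1.5.0 under R 4.3.3. Figures and promoters used matplotlib 3.10.9, pandas 2.3.3 and numpy 2.4.6 under Python 3.11.15.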

Additional observations from a re-analysis of the deposited data

How the results depend on the processing

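No member was called in any comparison under any alternative. Over 34 member effects and 809 alternative values, 750 kept their direction, 59 reversed and 0 passed, with a lowest limma adjusted p of 0.245, and 15 effects never reversed. The cause of each change was not tested. Leaving out the low-weight arrays keeps Nras GFPhigh replicate 3 as the only array of its group. Without the low-weight arrays, reversals gave -0.47 for Vwf (GFPhigh over GFP-), 0.67 for Gp9 (GFPhigh over GFP-), 0.40 for Gp9 (interaction), -0.87 for Rab27b (Nras over wild-type), -1.21 for Thbs1 (GFPhigh over GFP-) and -0.0057 for Fli1 (interaction). With replicates 1 and 2 alone, reversals gave 0.30 for Vwf (Nras over wild-type), 0.011 for Pf4 (interaction), 0.46 for Gp9 (interaction), 0.14 for Treml1 (GFPhigh over GFP-) and 1.42 for Treml1 (interaction). With median centring, reversals gave 0.20 for Selp (Nras over wild-type), -0.043 for Fli1 (GFPhigh over GFP-) and -0.39 for Fli1 (interaction). With array weights, reversals gave -0.50 for Rab27b (Nras over wild-type), -0.11 for Thbs1 (GFPhigh over GFP-), -0.030 for Fli1 (GFPhigh over GFP-) and -0.10 for Fli1 (interaction). With a pseudocount of 100, reversals gave 0.11 for Selp (Nras over wild-type) and 0.018 for Treml1 (GFPhigh over GFP-). With the mean over probe sets, reversals gave 0.10 for Selp (Nras over wild-type), -0.35 for Rab27b (Nras over wild-type) and -0.17 for Fli1 (interaction). In probe set 1440173_x_at, reversals gave 0.90 for Selp (Nras over wild-type) and 0.13 for Selp (Nras over wild-type in GFPhigh cells). In probe set 1439610_at, reversals gave 0.038 for Rab27b (GFPhigh over GFP-) and -0.73 for Rab27b (Nras over wild-type). In probe set 1417215_at, reversals gave -0.77 for Rab27b (Nras over wild-type). In probe set 1422024_at, reversals gave 0.26 for Fli1 (Nras over wild-type) and -0.58 for Fli1 (interaction). When each array was left out in turn, Vwf (Nras over wild-type) ranged from -0.67 to 0.25, Selp (GFPhigh over GFP- in wild-type cells) ranged from -0.044 to 1.71, Selp (Nras over wild-type) ranged from -0.76 to 0.32, Gp5 (Nras over wild-type) ranged from -0.051 to 1.30 and Gp5 (interaction) ranged from -2.16 to 0.55. In the same way, Gp9 (interaction) ranged from -1.37 to 0.20, Rab27b (Nras over wild-type) ranged from -0.48 to 0.53, Thbs1 (GFPhigh over GFP-) ranged from -0.12 to 1.45 and Thbs1 (interaction) ranged from -0.48 to 2.63, while Fli1 (GFPhigh over GFP-) ranged from -0.038 to 0.33, Fli1 (interaction) ranged from -0.080 to 0.66, Treml1 (GFPhigh over GFP-) ranged from -1.12 to 0.24 and Treml1 (interaction) ranged from -1.79 to 1.07. 

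Counts of genes called moved more. For GFPhigh against GFP- over both genotypes, 0 genes became 2 with median centring, 8 with array weights, 1 without the filter, 4 with a pseudocount of 15.5, 6 with one of 100, 3 without the low-weight arrays and 1 without the intensity trend. In wild-type cells it became 4 with array weights, and in Nras cells 3 with median centring and 4 without the low-weight arrays. For Nras against wild-type over both populations, 1 gene became 2 with quantile normalization and 0 with median centring, the replicate block, replicates 1 and 2 alone, no intensity trend or no low-weight arrays. Leaving out each array gave 0 to 16 genes for GFPhigh against GFP- over both genotypes, 0 to 161 in Nras cells (161 without Nras GFPhigh replicate 3), 0 to 5 for Nras against wild-type, 0 to 8 in GFP- cells, 0 to 17 in GFPhigh cells and 0 to 1 for the interaction. Members without overlap between Nras GFPhigh and GFP- cells went from 1 to 2 with quantile normalization and 3 with median centring. Between Nras and wild-type they went from 0 to 1 in GFP- cells with either scaling, and from 1 to 0 in GFPhigh cells with median centring. The shares of all genes without overlap under these scalings were not computed, so these counts are not read as a result about the members. Median centring moved the all-gene median to -0.41 for GFPhigh over GFP- in Nras cells. It moved to 0.43 for Nras over wild-type GFP- cells.

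The replicate block called 0 members in all 7 comparisons. Deviations of same-numbered samples correlated from -0.044 to 0.15 over 18 pairs. Because not every pair was over 0.1, the numbers were not taken to pair the samples. The 3 pairs over 0.1 (0.15, 0.14 and 0.11) were all of replicate 3, which also stands apart in Xist, and 11 of 12 samples correlated best with their own number, a hint from the data and not the design. Ppbp, Gp5, Gp9 and Treml1 were above the array median on 1, 4, 5 and 6 of 12 arrays, no detection calls were used, and 3 arrays a group leave wide intervals. Leaving out 1 array moved 29 of the 34 member effects by over 1.5 times or turned their sign.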
